A study of Mus musculus with 4 samples.

Results

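The genes described here encode the caveolins, the cavins and accessory proteins of the caveola coat: Cav1, Cav2, Cavin1, Cavin2, Cavin3, Ehd2 and Pacsin2. They were chosen by symbol, with every probe set that the array's annotation gave to 1 of these symbols alone (the annotation lists the cavins under their current names, not the older Ptrf, Sdpr and Prkcdbp). Of the 7 genes, 6 were measured, through 15 of the 34945 probe sets with 1 symbol on the array and as 6 of its 18193 genes. Pacsin2 had no probe set named for it alone in the annotation used here and was not analysed here. The choice was made with the co-culture change of these genes already known, so that change is given as a description and no test was made of it.

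There were 4 groups of mixed RNA, each measured by 1 array, so there are no replicates and no difference was tested. The KO co-culture group held Kupffer cells, which are liver macrophages, from Clec4n-/- mice together with SL4 cells, a mouse colon carcinoma line. The WT co-culture group held wild-type Kupffer cells together with SL4 cells. In the KO separate and WT separate groups the same kinds of cells were kept apart and their RNA was mixed before the array. Clec4n encodes Dectin-2, a receptor for fungal sugars. Kupffer cells were sorted by CD45, CD11b and the macrophage antigen that Adgre1 encodes, from female C57BL/6 mice aged 12 weeks. Each culture had 100000 Kupffer cells and 100000 SL4 cells and lasted 8 hours. SL4 cells, a single line on the C57BL/6 background, were present in all 4 groups, and the labels give a genotype for the Kupffer cells only. The labels do not say how many mice gave the Kupffer cells of an array.

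Values are MAS5 signals, which are probe set intensities scaled to a common level on each array. The median signal of all probe sets over the 4 arrays, 76.1, served as a floor: signals at or under it were treated as background. Array medians lay between 72.5 and 78.4, and 9727 genes were above the floor in all 4 arrays. Clec4n itself was under the floor in every array, at 8.19 in KO co-culture, 17.6 in WT co-culture, 8.29 in KO separate and 14.2 in WT separate on its brighter probe set. Since the deleted stretch of Clec4n is not given in the sources used here, these dim values check the genotype labels only weakly.

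The labelled cell types were only partly visible. Of 12 Kupffer cell and macrophage markers, 5 were above the floor in all 4 arrays (Cd68, C1qb, Cd5l, Lyz2 and Csf1r), while Clec4f, Vsig4, Timd4 and Adgre1, the gene of the sorting antigen, were under it in every array. Of 10 epithelial markers, Spint1 alone was above the floor in all 4 arrays, at 869 in KO co-culture, 776 in WT co-culture, 667 in KO separate and 750 in WT separate. Epcam was dimly above it in 3 arrays, at 103 in WT co-culture, 124 in KO separate and 83.9 in WT separate, and under it at 43.9 in KO co-culture. The keratin genes Krt8, Krt18, Krt19 and Krt20, the E-cadherin gene Cdh1 and the intestinal transcription factor gene Cdx2 were under the floor in every array. Of 6 adipocyte and muscle markers on the array, 4 were above the floor in all 4 arrays (Myod1, Myog, Myh1 and Fabp4), and Ckm and Adipoq were under it. Myod1, a transcription factor of muscle precursors, read 326 in KO co-culture, 338 in WT co-culture, 372 in KO separate and 367 in WT separate. That was its brighter probe set, and its other one, 1447675_x_at, was under the floor in every array. Myog, a transcription factor of muscle differentiation, read 518 in KO co-culture, 512 in WT co-culture, 434 in KO separate and 452 in WT separate. Myh1, a fast myosin heavy chain of mature muscle, read 111 in KO co-culture and 121 in WT co-culture, against 215 in KO separate and 180 in WT separate. Its second probe set, 1427520_a_at, had log2 ratios of -1.42 or lower in knockout, where KO co-culture was under the floor, and of -0.29 in wild type. The remaining Myh1 probe set, 1452465_at, was under the floor in every array. The epithelial markers did not bear out a colon carcinoma identity of the SL4 cells, and what the SL4 cultures were is uncertain here. Because Kupffer cell and SL4 cell RNA were mixed on each array, the cell that a caveola transcript came from cannot be told from these values, nor can fewer cells of a type and less RNA per cell be told apart.

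Caveolae are small flask-shaped pits of the plasma membrane, abundant in muscle, fat, endothelial and fibroblast-like cells. Caveolins insert into the inner leaflet of the membrane and bind cholesterol, and cavins form a coat around them from the cytoplasmic side. The pits buffer membrane tension and take part in lipid handling and signalling. Ehd2 is an ATPase that holds caveolae at the cell surface by their neck, and Pacsin2 is an F-BAR protein that shapes the neck.

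Cav1 and Cav2 were the members with the lowest co-culture ratios, and they are neighbours on mouse chromosome 6, read in the same direction. Their promoter windows, 250 bases before to 50 after the annotated start, are shown because these are the 2 members that changed at least 2-fold. Both come from RefSeq, build GRCm38.p6, + strand, chr6:17306085-17306384 for the first Cav1 start and chr6:17280935-17281234 for Cav2. Capitals mark the GC box GGGCGG, the CCAAT box CCAAT and the AP-1 motif TGANTCA on either strand.
Cav1: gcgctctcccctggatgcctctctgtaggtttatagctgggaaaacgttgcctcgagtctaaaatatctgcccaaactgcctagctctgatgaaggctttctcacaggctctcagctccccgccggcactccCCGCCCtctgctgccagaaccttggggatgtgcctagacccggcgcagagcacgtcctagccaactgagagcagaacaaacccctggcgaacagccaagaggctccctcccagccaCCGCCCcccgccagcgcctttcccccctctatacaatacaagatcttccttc
Cav2: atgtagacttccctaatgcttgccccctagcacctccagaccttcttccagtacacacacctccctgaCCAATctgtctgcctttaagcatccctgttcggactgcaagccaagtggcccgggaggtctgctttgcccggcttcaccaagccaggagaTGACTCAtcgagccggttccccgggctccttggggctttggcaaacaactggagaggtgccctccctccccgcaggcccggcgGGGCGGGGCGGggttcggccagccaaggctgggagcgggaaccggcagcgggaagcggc
The Cav1 window held 2 GC boxes and the Cav2 window 2 that overlap by 1 base, together with 1 CCAAT box and 1 AP-1 match. Among 32851 promoter windows of the same length, 35.7% held a GC box, 37.4% a CCAAT box and 7.81% an AP-1 match. The windows of 1 chromosome, which holds none of the members, were left out of this count. Neither of the 2 shown windows held a match to the kappaB motif (4.51% of the counted windows), to the CArG box (1.63%) or to the forkhead motif TGTTTAC (3.65%). The Cav1 window held 1 match to the TATA box TATAAA (13.6%), far from the start. A second annotated Cav1 start had a window with no match to any of these. These matches describe the letters of the windows and are not binding sites.

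The first comparison sets co-culture against separate culture within each genotype. The caveolin genes were far lower in co-culture. Cav1, which encodes the main structural protein of caveolae, had a signal of 156 in KO co-culture, against 725 in KO separate culture. In wild type it had 202 in co-culture, against 776 in separate culture. Both co-culture arrays lay below both separate arrays, and Cav1 was 4.65-fold lower in co-culture in knockout and 3.84-fold lower in wild type. These were log2 ratios of -2.22 and -1.94, the lowest of 10444 genes in knockout and of 10417 genes in wild type. They rest on 1 probe set, 1449145_a_at, the only one for Cav1, so no second one could be compared. A co-culture signal of 156 is close to 2 times the floor. Cav1 belongs to the 2164 genes with a geometric mean signal from 200 to 500. Their log2 ratios of co-culture over separate culture had an SD of 0.37 in knockout and of 0.38 in wild type. Those of knockout over wild type had an SD of 0.27 in co-culture and of 0.26 in separate culture.

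Cav2, a partner that forms mixed oligomers with Cav1, was measured by 2 probe sets that did not move alike. The brighter one, 1417327_at, read 250 in KO co-culture, against 735 in KO separate culture. In wild type it read 287 in co-culture, against 734 in separate culture. The arrays of the 2 culture conditions did not overlap, and Cav2 was 2.95-fold lower in co-culture in knockout and 2.56-fold lower in wild type, log2 ratios of -1.56 and -1.36. It ranked 8 from the lowest in knockout and 16 from the lowest in wild type. The second probe set, 1425955_at, was dimmer, at 162 in KO co-culture and 153 in WT co-culture, against 158 in KO separate and 112 in WT separate. Its log2 ratios were 0.03 in knockout and 0.45 in wild type, so it did not show the lower signal, and as the median of both probe sets Cav2 was at -0.76 in knockout and -0.45 in wild type, short of 2-fold.

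**Figure D1:**
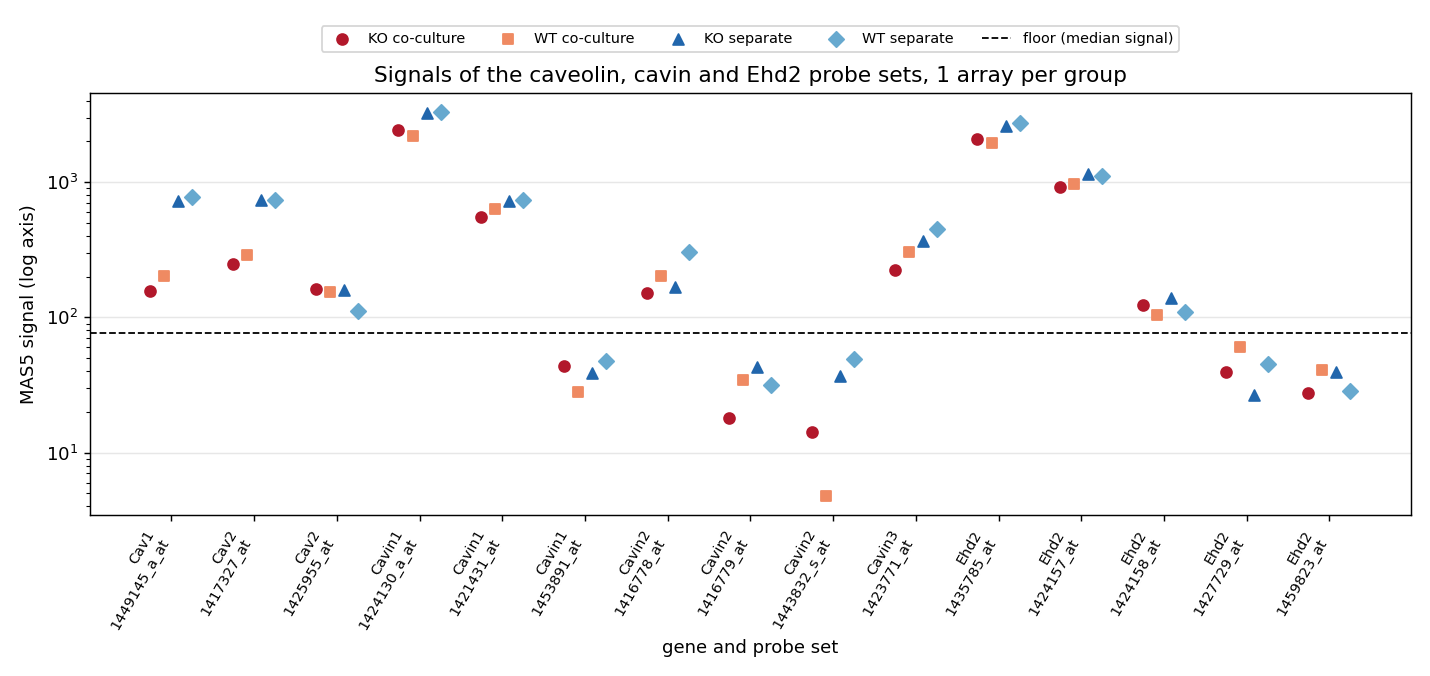
MAS5 signal (log axis) of all 15 member probe sets in the 4 arrays, 1 point per array, with the floor of 76.1 as a dashed line. The co-culture points of Cav1 (156 and 202) and of the brighter Cav2 probe set (250 and 287) lie well below their separate culture points, and 5 probe sets lie under the floor in all arrays.

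The cavins were lower by less than 2-fold. Cavin1, the founding coat protein, without which caveolae do not form, had 2439 in KO co-culture, against 3227 in KO separate culture. In wild type it had 2194 in co-culture, against 3294 in separate culture. Co-culture lay below separate culture without overlap, with log2 ratios of -0.40 in knockout and -0.59 in wild type. Its second probe set above the floor, 1421431_at, ran the same way, at 551 in KO co-culture and 634 in WT co-culture, against 728 in KO separate and 743 in WT separate. The remaining one, 1453891_at, was under the floor in all 4 arrays.

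Cavin3, a cavin that binds protein kinase C delta, had 225 in KO co-culture, against 368 in KO separate culture. In wild type it had 304 in co-culture, against 449 in separate culture. The co-culture arrays were the lower ones without overlap, 1.63-fold in knockout and 1.48-fold in wild type. Its log2 ratio in knockout, -0.71, was outside the central 95% of the 9727 genes above the floor in all arrays (-0.66 to 0.54), while that in wild type, -0.56, was inside (-0.63 to 0.61).

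Cavin2, a cavin that shapes caveolae in some endothelia, read 152 in KO co-culture, against 168 in KO separate culture. In wild type it read 202 in co-culture, against 302 in separate culture. Here the groups overlapped, since KO separate lay below WT co-culture, and the log2 ratios were -0.14 in knockout and -0.58 in wild type. The WT separate array stands apart from the other arrays in this gene, and both the wild-type culture ratio and the genotype ratio in separate culture use it. The other 2 Cavin2 probe sets, 1416779_at and 1443832_s_at, were under the floor in every array.

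Ehd2 had 2102 in KO co-culture, against 2588 in KO separate culture. In wild type it had 1932 in co-culture, against 2746 in separate culture. Co-culture was again lower without overlap, 1.23-fold in knockout and 1.42-fold in wild type. Of its 5 probe sets, 3 were above the floor in all arrays, and all 3 had ratios below 1 in both genotypes. The second, 1424157_at, had log2 ratios of -0.31 in knockout and -0.20 in wild type, and the dimmest, 1424158_at, of -0.16 in knockout and -0.07 in wild type.

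All 6 measured members thus had lower signals in co-culture in both genotypes, on the brightest probe set of each. Their median log2 ratio was -0.56 in knockout and -0.58 in wild type, while all genes had medians of -0.02 in both. Only Cav1 and Cav2 were at least 2-fold lower, 2 of 6 in each genotype and the same 2 in both. Among all genes 0.574% were at least 2-fold lower in knockout, 0.538% in wild type and 0.225% in both. The brightest probe sets of 5 members had both co-culture arrays below both separate arrays, as did 26.6% of the genes above the floor in all arrays. A ratio below 1 was found for 53.0% of genes in knockout and 53.3% in wild type. Of the 10 member probe sets above the floor, 7 had no overlap between culture conditions, and Cav2 1425955_at, Cavin2 1416778_at and Ehd2 1424158_at did. The 2 culture comparisons share no array, but the members were picked with both known, so these counts support nothing further.

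**Figure D2:**
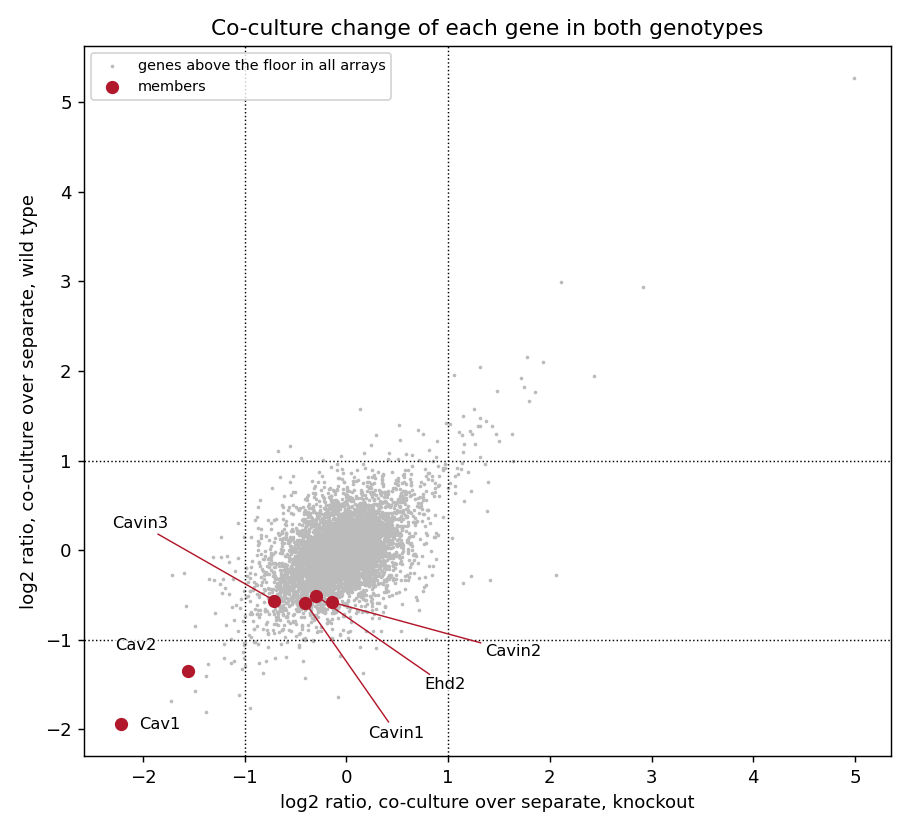
Log2 ratio of co-culture over separate culture in knockout (x axis) and wild type (y axis) for the 9727 genes above the floor in all arrays, in grey, with the 6 measured members in red and dotted lines at 2-fold. Cav1 and Cav2 sit past 2-fold in the lower left, and the other 4 members lie at the lower left edge of the main cloud, between -0.14 and -0.71 in knockout.

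The genotype comparison was not used in the choice of the genes. In co-culture none of the 6 members differed 2-fold between knockout and wild type, and among all genes 0.240% did so in either direction. The median log2 ratio of the members was -0.29, with 4 of 6 below 0, as 50.5% of all genes were. Cavin3 had 225 in knockout against 304 in wild type, a log2 ratio of -0.44, Cavin2 was at -0.41 and Cav1 at -0.37. Cavin1 and Ehd2 were slightly higher in knockout, at 0.15 and 0.12. All 6 lay within the central 95% of genes for this comparison, -0.47 to 0.45.

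In separate culture none of the 6 members differed 2-fold between genotypes either, beside 0.203% of all genes. Their median log2 ratio was -0.09, with 5 of 6 below 0, as 48.9% of all genes were. Cav2 was level at 0.00, Cavin1 was at -0.03, Ehd2 at -0.09 and Cav1 at -0.10. The second Cav2 probe set, 1425955_at, had 158 in knockout against 112 in wild type, a log2 ratio of 0.50. Cavin2 was the exception among the brightest probe sets, with 168 in knockout against 302 in wild type, 1.80-fold lower in knockout and the gene at rank 32 from the lowest of 10362. Its log2 ratio of -0.85 was outside the central 95% of genes (-0.42 to 0.50). Cavin2 is a dim gene, whose geometric mean over the 4 arrays lies at about 200. The SD of this ratio was 0.36 over genes with a geometric mean signal under 200 and 0.26 over those from 200 to 500, and 0.13 over genes at 2000 and over.

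**Figure D3:**
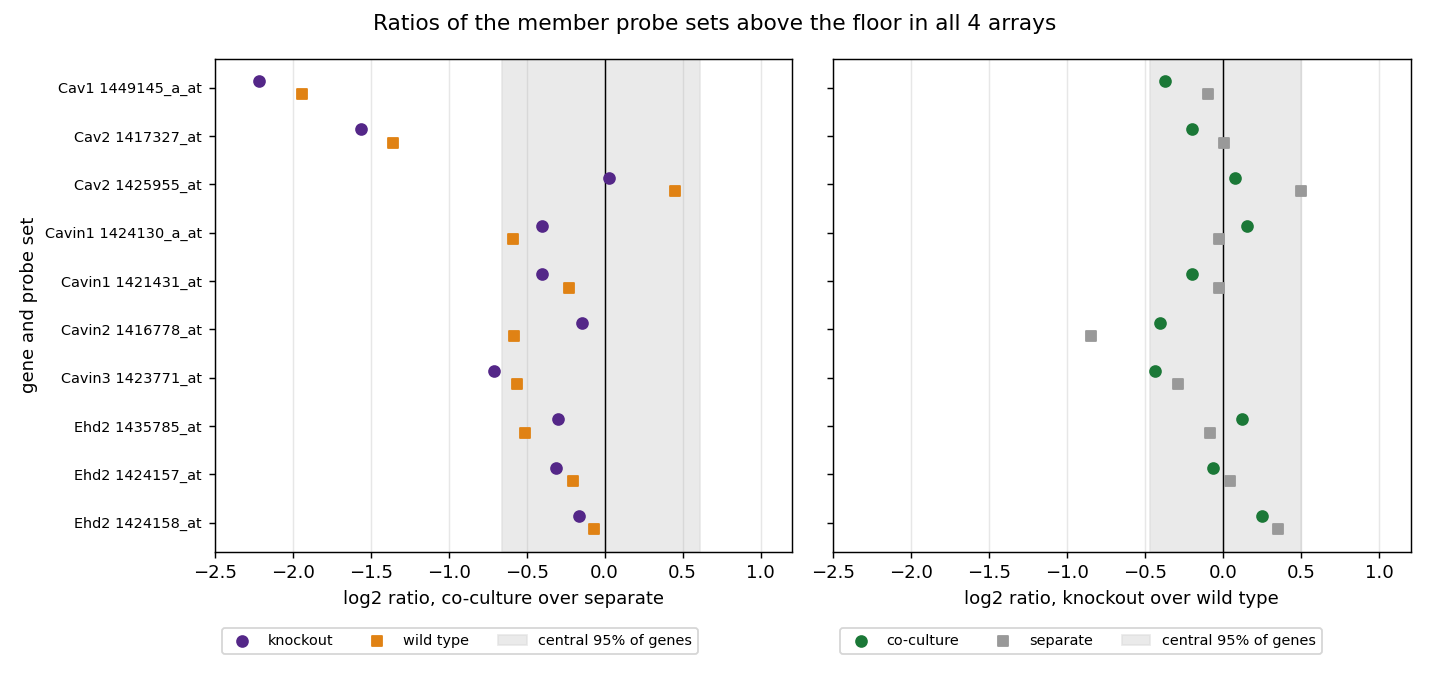
Log2 ratios of the 10 member probe sets above the floor in all arrays, for co-culture over separate culture (left; circles knockout, squares wild type) and for knockout over wild type (right; circles co-culture, squares separate). Grey bands span the wider limits of the central 95% of genes for the 2 comparisons of a panel, and outside them lie Cav1, Cav2 1417327_at and Cavin3 in knockout at left and Cavin2 in separate culture at right, with Cav2 1425955_at in separate culture at the very edge.

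A further question was whether the co-culture change of the coat genes differed between genotypes. The knockout log2 culture ratio minus the wild-type one was -0.28 for Cav1, -0.20 for Cav2 and -0.15 for Cavin3. It was 0.18 for Cavin1, 0.21 for Ehd2 and 0.44 for Cavin2. So 3 members were lower and 3 higher, with a median of 0.02, where 49.6% of all genes were lower, and none differed 2-fold, as 1.05% of all genes did. All 6 lay within the central 95% of genes (-0.68 to 0.57). The caveolins were low in co-culture with knockout as with wild-type Kupffer cells, and with 1 array per group a smaller difference between genotypes could not be seen.

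Other genes of caveolae and of related membrane proteins were given by lists. Cavin4, a cavin of muscle, was above the floor in all arrays, at 1175 in KO co-culture and 1335 in WT co-culture, against 2300 in KO separate and 1711 in WT separate. Its co-culture arrays were both below its separate ones, with log2 ratios of -0.97 in knockout and -0.36 in wild type, short of 2-fold. Cav3, the muscle caveolin, was under the floor everywhere.

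Ehd1 and Ehd4 are relatives of Ehd2 that act on endosomes. Ehd1 had 7087 in KO co-culture and 6514 in WT co-culture, against 5954 in KO separate and 5748 in WT separate, higher in co-culture without overlap. Its 4 probe sets all had ratios above 1 in both genotypes, from 0.11 to 0.59 on the log2 scale. Ehd4 was at -0.14 in knockout and -0.23 in wild type, and Ehd3 was under the floor. Pacsin3, a relative of Pacsin2, was at -0.02 in knockout and 0.41 in wild type on its brightest probe set. Its dimmer probe sets had the opposite signs, with WT co-culture under the floor. In knockout 1416995_at was at 0.17 and 1456191_x_at at 0.28, and in wild type at -0.02 or lower and -0.18 or lower. The neuronal Pacsin1 was under the floor.

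Flotillins build another kind of cholesterol-rich membrane domain. Flot1 was at -0.54 in knockout and -0.34 in wild type, and Flot2 at -0.39 and 0.00 in the same order. Dnm2, the general dynamin that cuts vesicle necks, was at 0.00 in knockout and 0.17 in wild type, and Dnm1 at -0.66 and -0.37. Clathrin-coated pits are the main other route of uptake: 12 of the 13 listed clathrin coat genes were on the array, with a median of -0.07 in knockout and -0.12 in wild type. None of the 12 reached 2-fold in co-culture in either genotype, where 1.24% of all genes did in each, although Epn1 in knockout has only a bound just short of it. The clathrin heavy chain gene Cltc was at 0.17 in knockout and 0.02 in wild type.

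Of 16 partners and residents of caveolae, 12 were above the floor, with medians of -0.03 in knockout and 0.02 in wild type and none at 2-fold in either direction, beside the 1.24% of all genes. Flna, an actin cross-linker that binds Cav1, was at -0.11 in knockout and -0.17 in wild type. Src, a kinase that phosphorylates Cav1, was at -0.24 in knockout and 0.36 in wild type. Plvap, the protein of the caveolar diaphragm in endothelium, Nos3, the endothelial nitric oxide synthase, Cd36 and Egfr were under the floor in all arrays.

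**Figure D4:**
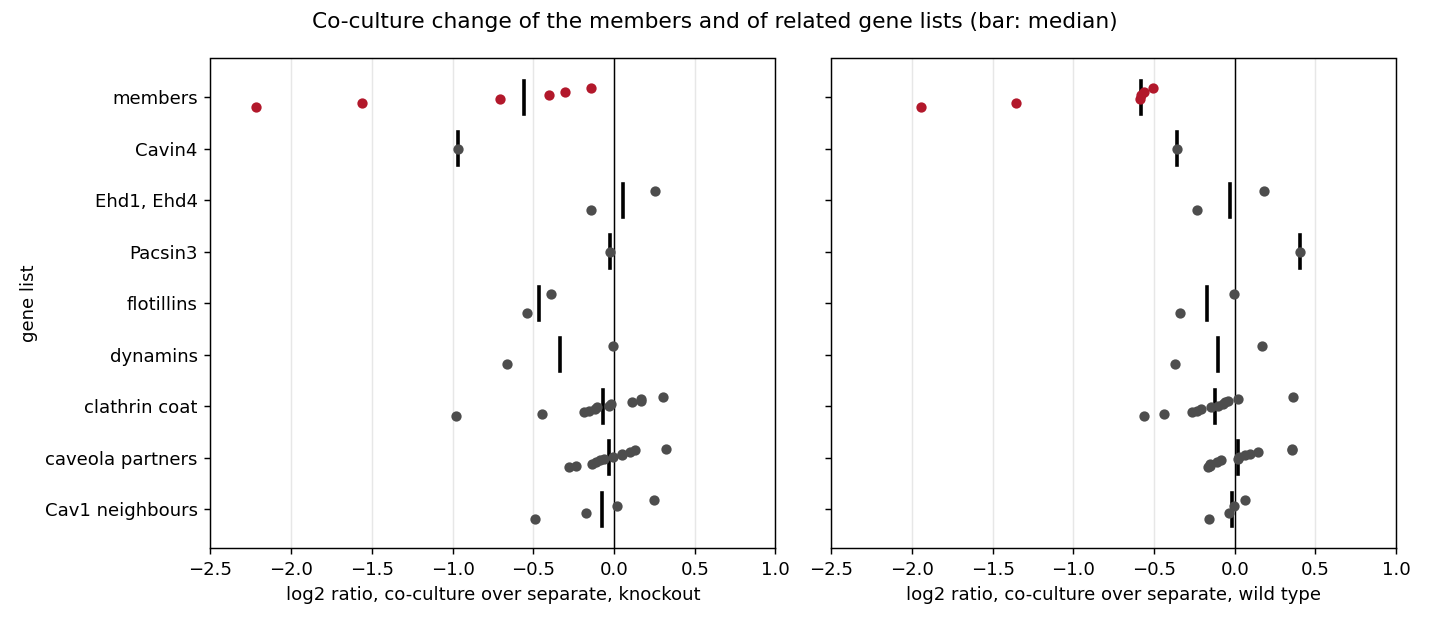
Log2 ratio of co-culture over separate culture in knockout (left) and wild type (right) for the members, in red, and for related gene lists, 1 point per gene with the median as a bar. The members' medians are -0.56 and -0.58, and the clathrin coat genes centre on -0.07 and -0.12.

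Of 5 genes beside the caveolins on chromosome 6, 4 were above the floor and none was 2-fold lower in co-culture, as few genes were (0.574% in knockout and 0.538% in wild type). Tes, on the far side of Cav2, was at -0.17 in knockout and -0.16 in wild type. Met, the hepatocyte growth factor receptor gene next to Cav1, was at -0.49 in knockout and 0.07 in wild type, and its second probe set, 1422990_at, was at -0.10 and -0.13. Capza2, an actin-capping protein, was at 0.02 in knockout and -0.03 in wild type, and St7 at 0.25 and 0.00.

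The genes with the pattern closest to Cav1 were found by the Euclidean distance between mean-centred log2 signals over the 4 arrays, among the 9441 other genes above the floor in all arrays that have no provisional symbol. In order they were Col4a5, a basement membrane collagen chain, at 0.55, Pdlim2, a PDZ-LIM protein, at 0.61, Dkk2, a secreted Wnt modulator, at 0.62, Smyd1, a muscle methyltransferase, at 0.63, and Cav2 at 0.64. Among the other members Cavin3 ranked 115, Cavin1 354, Ehd2 555 and Cavin2 899 by closeness to Cav1. The members were picked with their co-culture change known, so these ranks support nothing further. Nearest to Cav2 were Pdlim2 at 0.13, Mylk4, a relative of myosin light chain kinase, at 0.19, Smyd1 at 0.19, Dkk2 at 0.34 and Col4a5 at 0.35. Pdlim2 had 185 in KO co-culture and 231 in WT co-culture, against 549 in KO separate and 602 in WT separate, so that its 4 values ran nearly in parallel with those of Cav2. Smyd1 had 211 in KO co-culture and 203 in WT co-culture, against 592 in KO separate and 604 in WT separate, and its second probe set above the floor in all arrays, 1421329_a_at, was also more than 2-fold lower. Col4a5 was barely above the floor in co-culture, at 83.5 in KO co-culture and 76.7 in WT co-culture. Its other probe set, 1425475_at, was under the floor in both co-culture arrays, with log2 ratios of -0.51 or lower in knockout and -0.37 or lower in wild type.

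Markers of cell types that carry caveolae were set beside these results. Of 12 endothelial markers only Eng was above the floor, and the whole list's summed signal was 515 in KO co-culture and 520 in WT co-culture, against 404 in KO separate and 394 in WT separate. Pecam1, Cdh5, Kdr, Stab2 and Lyve1 were under the floor in every array. Of 12 stellate cell and fibroblast markers, 7 were above the floor in at least 1 array, and the summed signal of all 12 was lower in co-culture, 6278 in KO co-culture and 6268 in WT co-culture, against 8340 in KO separate and 8833 in WT separate. Des, the muscle and stellate cell filament gene, was at -0.71 in knockout and -0.93 in wild type, Acta2, smooth muscle actin, at -0.58 and -0.73, and Col3a1, a fibrillar collagen, at -0.48 and -0.55. All other probe sets of Des, Acta2 and Col3a1 were under the floor in every array. Pdgfrb, a growth factor receptor of stellate cells, was at -0.38 in knockout and -0.89 in wild type. Its dimmer probe set, 1417148_at, was at -0.88 or lower in knockout, where KO co-culture was under the floor, and at -0.53 in wild type. Reln was at -0.18 and -0.13 and Pdgfra at -0.15 and 0.19, while Thy1 was above the floor in KO co-culture only, at least 0.24 on the log2 scale above KO separate. Lrat, Col1a1, Col1a2, Dcn and Lum were under the floor in every array. The Kupffer cell and macrophage markers had a higher summed signal in co-culture, 1006 in KO co-culture and 1069 in WT co-culture, against 909 in KO separate and 798 in WT separate. C1qb, a complement gene, had the list's only 2-fold difference, in wild type, where 1.24% of all genes had 1 in either direction. It read 211 in KO co-culture and 264 in WT co-culture, against 147 in KO separate and 100.3 in WT separate, a 2.63-fold higher signal in wild-type co-culture. That was its brightest probe set, 1437726_x_at. Of the others, 1434366_x_at had log2 ratios of 0.01 in knockout and 0.83 in wild type, short of 2-fold, and 1417063_at was under the floor in every array. The listed genes C1qa, C1qc and Marco were also under the floor in every array. Csf1r was at 0.02 in knockout and -0.19 in wild type. Of 6 hepatocyte markers, 3 were above the floor, and the summed signal of all 6 was 622 in KO co-culture and 591 in WT co-culture, against 719 in KO separate and 673 in WT separate. The summed signals of these lists differed between culture conditions alongside the caveolins. For the adipocyte and muscle list they were close, at 1484 in KO co-culture and 1465 in WT co-culture, against 1433 in KO separate and 1398 in WT separate. Its median log2 ratio was 0.03 in both genotypes, with 2 genes above 0 and 2 below. Those sums include genes under the floor, and Eng was the only endothelial gene above it, so they need not reflect a list as a whole. What part these lists had in the caveolin result was not tested.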

How the data were processed

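Expression was measured on 4 one-colour arrays, 1 per group, from 20 ng of total RNA each. The authors deposited linear probe set intensities made with Affymetrix Expression Console 1.4 and MAS5, per the submitters' processing notes. Trimmed means of the 4 arrays were 497 or 498. Array number limits the precision.

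Probe sets with 1 symbol were kept (34945 of 45037; 932 had several and 9160 none listed), and 34741 were matched by Entrez number to a RefSeq table of GRCm38.p6, which changed 0 symbols. A gene was represented by its brightest probe set on average. Signals were raised to the floor of 76.1 and log2 ratios taken, with no further scaling; a call is a ratio of at least 2-fold. No ratio is given where both arrays were at or under the floor. Groups of 1 array allow no replicate check, so no p-value is given. An additive fit of culture and genotype was not made. Calculations used Python 3.11.15, numpy 2.4.6 and pandas 2.3.3 and were tested on simulated data.

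Members and lists were chosen with earlier results of these data known. Named genes are the members, the listed genes, Clec4n and the 5 nearest in pattern to Cav1 and to Cav2. The other floors, probe set choices, scalings and thresholds tried are given at the end. Of the listed genes, Picalm and Plin1 were not analysed here.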

Additional observations from a re-analysis of the deposited data

Results flagged for a closer look

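Knockout over wild type ran in opposite directions in the 2 culture conditions for 4 member probe sets above the floor, and with 1 array per group these differences were not tested. The brighter Cav2 probe set had log2 ratios of -0.20 in co-culture and 0.0031 in separate culture. The brightest Cavin1 probe set had 0.15 in co-culture and -0.030 in separate culture. The brightest Ehd2 probe set had 0.12 in co-culture and -0.085 in separate culture, and Ehd2 1424157_at had -0.067 in co-culture and 0.041 in separate culture. All 8 values lay within the central 95% of genes of their comparison. For the co-culture change no member probe set above the floor had opposite directions in the genotypes.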

How the results depend on the processing

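Co-culture ratios of Cav1 and of Cav2 1417327_at stayed past 2-fold with quantile normalization and with arrays divided by their medians. Cav1 ranged from -2.25 to -2.20 in knockout and from -2.05 to -1.94 in wild type. Removing the floor, a floor at 2 times the median and leaving out _s_at and _x_at probe sets could not change any member's value. The brightest probe set of each member lay above both floors in every array and is of neither type. With the median over probe sets, 1 member in place of 2 was at least 2-fold lower in each genotype, because Cav2 then averages 2 probe sets that disagree, and Cavin2 lay under the floor and had no ratio. In wild type Cavin1 was then at -0.23 and Ehd2 at -0.07. At a threshold of 1.5-fold, 1 member in place of 0, Cavin2, was lower in knockout separate culture, and 3 in place of 2 were lower in co-culture in each genotype, with Cavin3 added in knockout and Cavin1 in wild type. Of 175 single-gene values under 6 alternatives, 166 moved by less than the spread between the genotype arrays (SD 0.22, or 0.29 for the difference of ratios). The remaining 9 moved by more, all with the median over probe sets, and 0 of the values called 2-fold reversed. Most of the 166 could not have moved: each floor setting and the removal of _s_at and _x_at probe sets held 30 values fixed in advance. The median over probe sets was likewise fixed for Cav1 and Cavin3, which have 1 probe set each.

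Counts over all genes depended more on the settings. Without a floor 1734 genes were at least 2-fold higher and 1564 lower in knockout co-culture, and 1983 and 1550 in wild type, against 70 and 60, and 73 and 56. At 2 times the floor they were 48 and 31 in knockout and 46 and 29 in wild type, and at 1.5-fold 261 and 447, and 345 and 353. Between genotypes the counts were 15 higher and 10 lower in co-culture and 9 and 12 in separate culture; they were 1808, 1442, 1896 and 1339 without a floor, 2, 1, 2 and 4 at 2 times the floor, and 157, 154, 180 and 109 at 1.5-fold. With the median over probe sets 18 were higher in separate culture. Dividing by array medians moved the median gene in wild-type culture to -0.13 and its split to 59 higher and 93 lower, and quantile normalization and array medians gave 5 and 18, and 6 and 21, between genotypes in separate culture. Pairing the culture conditions by genotype, with 1 residual degree of freedom, was not run. Leaving out an array would leave its comparisons with nothing to compare. Dim probe sets, near the floor, limit Cav1 in co-culture, Cavin2 and the second Cav2 probe set.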

Other observations

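Among the clathrin coat genes, 2 with 1 probe set each had values that stood out from the list. Epn1, a cargo adaptor of clathrin-coated pits, was dim, at 66.4 in KO co-culture and 113 in WT co-culture, against 150 in KO separate and 167 in WT separate, a log2 ratio of -0.98 or lower in knockout, where KO co-culture was under the floor, and of -0.56 in wild type. Ap2a1, a subunit of the AP-2 adaptor, had 663 in KO co-culture against 977 in WT co-culture, and 672 in KO separate against 761 in WT separate.

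Met had 1916 in KO co-culture against 2686 in WT co-culture on its brighter probe set, while its second, 1422990_at, had 495 in knockout and 497 in wild type. Eng, a coreceptor for transforming growth factor beta, was higher in co-culture without overlap on its brighter probe set, at 309 in KO co-culture and 339 in WT co-culture, against 213 in KO separate and 270 in WT separate. Its second probe set, 1432176_a_at, near the floor, ran the other way, at 70.6 in KO co-culture and 66.8 in WT co-culture, against 92.8 in KO separate and 76.8 in WT separate. Fabp4, a fatty acid carrier of fat cells and macrophages, was also higher, at 494 in KO co-culture and 464 in WT co-culture, against 382 in KO separate and 360 in WT separate.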
